A study of Mus musculus with 2 samples.

Results

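The calcitonin-family receptors and their Ramp partners were followed as 5 genes, Calcr, Calcrl, Ramp1, Ramp2 and Ramp3, of the 32285 genes in the table, and each was read as the row of that symbol. They were measured in nuclei of the preoptic area (POA), a part of the mouse hypothalamus, by snRNA-seq, in 2 groups, US+ (ultrasound stimulation) and US- (sham treatment), taken about 1 h after stimulation from WT mice of 6 to 9 weeks. The labels give no strain or sex for these mice. A single library stood for each group, and its nuclei came from 4 mice whose tissue was pooled before sorting for NeuN, an antigen of neuronal nuclei, so that no value can be traced to a mouse and the spread between mice was not measured. Differences between US+ and US- therefore compare these libraries, have no replicate check and carry no p-value.

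Calcr encodes the calcitonin receptor, a class B G protein-coupled receptor that raises cAMP through Gs. Calcrl encodes a related receptor that reaches the cell surface only with a Ramp, a small protein with a single membrane span: with Ramp1 it is the receptor for calcitonin gene-related peptide (CGRP), and with Ramp2 or Ramp3 it binds adrenomedullin. A Ramp can also join Calcr, which then binds amylin. In the mouse POA, Calcr marks neurons known for parental care, and Calcrl with Ramp2 is best known from blood vessels.

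Nuclei were kept when they held 200 to 7500 genes, at most 5% mitochondrial UMIs (unique molecular identifiers, each of which stands for 1 captured transcript) and at least 2000 UMIs. These limits kept 9912 of 12075 US+ barcodes (82.1%) and 11040 of 11725 US- barcodes (94.2%), since 1987 US+ and 623 US- nuclei held under 2000 UMIs. The kept nuclei held 84857570 UMIs in US+ and 98904011 UMIs in US-, with medians of 7376 and 7664 UMIs a nucleus in US+ and US-. Levels are given as CPM, the UMIs of a gene per 1000000 UMIs, both summed over the nuclei of a class. A floor of 3 UMIs corresponded to 0.0353 CPM in US+ and 0.0303 CPM in US-. All intervals are exact 95% intervals that cover counting error only. The libraries shared 29 barcode sequences, 19 of them among kept nuclei.

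The kept nuclei were placed in classes by a few genes. Striatal-type nuclei, with at least 2 UMIs of the retinoic acid receptor gene Rarb and at least 1 UMI of the dopamine receptor genes Drd1 or Drd2, were 587 in US+ (5.92%) and 2017 in US- (18.3%). Nuclei with Slc17a6, the vesicular glutamate transporter gene, and few UMIs of the GABA genes Gad1 and Slc32a1 were divided by Skor2, a transcriptional corepressor gene, into 52 US+ and 50 US- Skor2/Slc17a6 nuclei and 1474 US+ and 1139 US- other Slc17a6 nuclei. GABAergic nuclei, with at least 2 UMIs of Gad1, Gad2 and Slc32a1 together, at least 1 of them from Gad1 or Slc32a1, and none of Slc17a6, were 3573 in US+ (36.0%) and 4060 in US- (36.8%), and the other 4226 US+ and 3774 US- nuclei met no gate and had lower median depths (5932 and 5877 UMIs). Genes outside the gates were then read as a check. The striatal-type class held Rgs9, a striatal regulator of G protein signalling, with 264 CPM in US+ and 369 CPM in US-, while GABAergic nuclei held it with 83.0 CPM in US+ and 90.8 CPM in US-. In the Skor2/Slc17a6 class, Tmem163 was at 334 CPM in US+, against 374 CPM in US-, but Skor1 was near 0 (1.73 and 4.30 CPM in US+ and US-), so the class is named only by its gate genes.

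**Figure D1:**
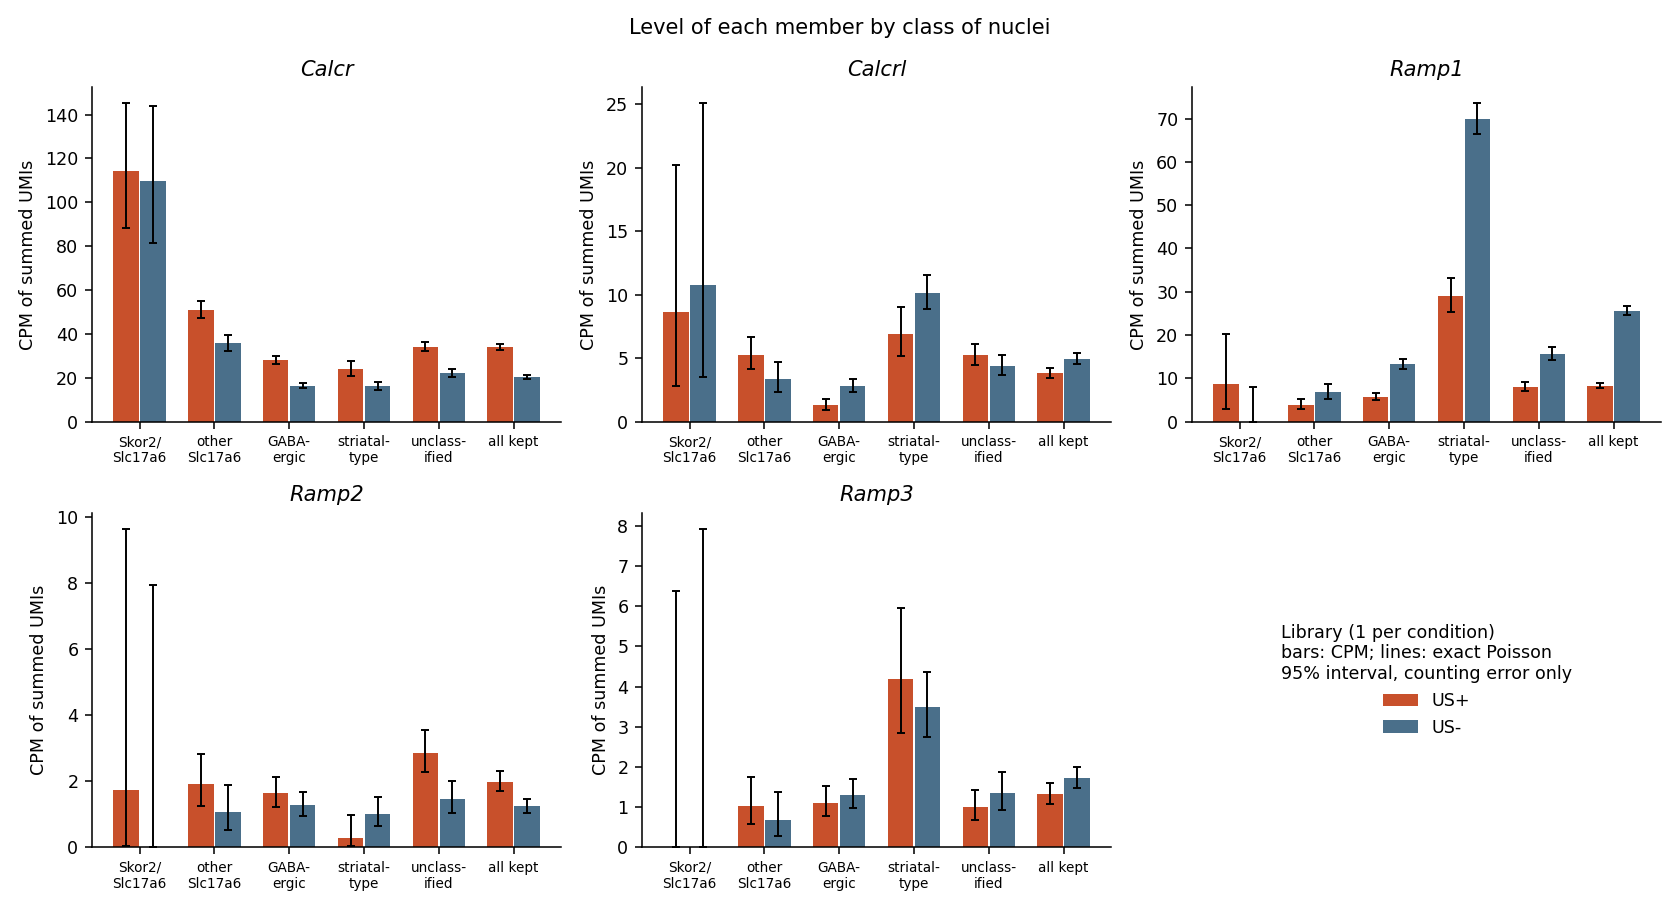
Levels of the 5 members (vertical axes, CPM of summed UMIs, each panel on its own scale) in each class of nuclei and in all kept nuclei, for US+ (left bar) and US- (right bar), with exact Poisson 95% intervals. Calcr was highest in Skor2/Slc17a6 nuclei (114 CPM in US+ and 110 CPM in US-), and Ramp1 was highest in striatal-type nuclei (29.1 CPM in US+ and 70.0 CPM in US-).

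The 2 members with the most UMIs, Calcr and Ramp1, lay on opposite sides between the libraries. The 250 bases before their annotated starts are shown for this reason, from RefSeq on GRCm38.p6, where 4 of the 5 members had an entry. Calcr had 2 annotated starts, of which the more upstream was used. The sequences are 5′ to 3′ on the strand of the gene, and capitals mark TGACG, the core of the cAMP response element, which was searched on both strands.
Calcr promoter, chr6:3764714-3764963, minus strand: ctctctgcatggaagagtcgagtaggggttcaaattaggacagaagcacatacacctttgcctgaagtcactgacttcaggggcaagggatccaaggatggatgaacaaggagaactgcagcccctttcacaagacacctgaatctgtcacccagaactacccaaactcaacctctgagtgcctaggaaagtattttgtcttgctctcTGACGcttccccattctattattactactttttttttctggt
Ramp1 promoter, chr1:91179572-91179821, plus strand: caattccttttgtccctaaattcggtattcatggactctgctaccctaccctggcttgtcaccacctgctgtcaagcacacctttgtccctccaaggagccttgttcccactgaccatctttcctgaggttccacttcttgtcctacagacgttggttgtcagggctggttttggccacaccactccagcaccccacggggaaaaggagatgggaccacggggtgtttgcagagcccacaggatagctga
The Calcr window held 1 match to TGACG and the Ramp1 window held 0, and 17.8% of 32851 windows of 250 bases before a gene start hold it on either strand. Neither window held the full element TGACGTCA, which 1.55% of the windows hold. AGGTCA, a nuclear receptor motif, had 0 matches in both windows on either strand and is held by 14.0% of the windows. Both windows had fewer CpG dinucleotides than the median of 6, with 2 in Calcr and 4 in Ramp1, and a GC content of 46% and 54%, against a median of 52.4%. These matches describe letters in a window and not sites in use.

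Calcr, at chromosome 6, 3685680 to 3764714 on the minus strand of GRCm38, was detected in every class and was higher in US+. Over all kept nuclei it had 2886 UMIs (34.0 CPM) in US+ and 2010 UMIs (20.3 CPM) in US-, a US+ over US- ratio of 1.67 (1.58 to 1.77). Of 20122 genes with at least 50 UMIs, 11.0% were past 1.5-fold in either direction, 7.67% being higher and 3.36% lower in US+. The Calcr ratio was above that of 95.2% of these genes, whose median log2 ratio was 0.06. At least 1 Calcr UMI was found in 1063 US+ nuclei (10.7%) and 710 US- nuclei (6.43%), with a mean of 2.71 and 2.83 UMIs in a positive nucleus of US+ and US-. The difference thus lay in the share of positive nuclei more than in the UMIs of each.

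Among classes, Calcr had the same order in both libraries. It was highest in Skor2/Slc17a6 nuclei, at 114 CPM (88.3 to 145) in US+ and 110 CPM (81.6 to 144) in US-. Other Slc17a6 nuclei followed with 51.0 CPM in US+ and 35.7 CPM in US-. GABAergic nuclei, at 28.0 CPM in US+, against 16.5 CPM in US-, and striatal-type nuclei, at 24.1 CPM in US+, against 16.1 CPM in US-, had overlapping intervals in each library. The striatal-type gate accepts Drd1 or Drd2 and may also hold nuclei that are not striatal. In all kept nuclei with at least 2 UMIs of Drd1, Calcr was at 3.91 and 4.42 CPM in US+ and US-. With at least 2 UMIs of Drd2 it was at 49.6 and 22.3 CPM in US+ and US-. Against all other kept nuclei the Skor2/Slc17a6 class was 3.41 times (2.63 to 4.35) as high in US+ and 5.51 times (4.09 to 7.27) in US-, and other Slc17a6 nuclei were 1.65 times (1.52 to 1.80) as high in US+ and 1.93 times (1.72 to 2.16) in US-. In these comparisons 11.8% and 2.09% of 18056 genes were past 2-fold the same way in both libraries. The Skor2/Slc17a6 class was 2.24 times (1.71 to 2.89) other Slc17a6 nuclei in US+ and 3.07 times (2.24 to 4.12) in US-, a comparison in which 3.44% of 12795 genes were past 2-fold the same way in both libraries. This rested on 66 and 51 Calcr UMIs in US+ and US-, of which 1 US- nucleus held 23. Without the highest nucleus of each library, an alternative chosen after seeing the data, the ratio was 1.96 in US+ and 1.75 (1.14 to 2.56) in US-, and with at least 2 Slc17a6 UMIs asked of both classes the US- interval included 1 (1.39, 0.679 to 2.54).

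Positive nuclei followed the same pattern. Calcr was found in 36.5% of US+ and 22% of US- Skor2/Slc17a6 nuclei and in 17.0% of US+ and 12.5% of US- other Slc17a6 nuclei. In GABAergic nuclei, at median depths (8515 UMIs in US+ and 8729 UMIs in US-) close to those of other Slc17a6 nuclei (8261 and 8221 UMIs in US+ and US-), the share was 8.73% in US+ and 5.10% in US-. No class here is known to lack Calcr. Among the marker gates described below, the share was lowest in Lhx6 nuclei in US+ (3.57%, with 2.08% in US-) and in Moxd1 nuclei in US- (1.26%, with 4.93% in US+), named after their values were seen. The part of free RNA in these shares was not measured. After thinning each nucleus to 2000 UMIs, Calcr was found in 13.5%, 7.40%, 3.58% and 3.24% of Skor2/Slc17a6, other Slc17a6, GABAergic and striatal-type nuclei of US+, and in 8%, 5.79%, 2.46% and 2.53% of those of US-.

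Within classes, the US+ over US- ratio of Calcr was above 1 with its interval in 3 of the 4 gated classes. It was 1.43 (1.26 to 1.62) in other Slc17a6 nuclei, where 5.19% of genes were past 1.5-fold. It was 1.70 (1.54 to 1.88) in GABAergic nuclei, where 7.68% were, and 1.49 (1.24 to 1.79) in striatal-type nuclei, where 15.3% were. In Skor2/Slc17a6 nuclei, where Calcr was highest, the ratio was 1.04 (0.712 to 1.53), against 11.3% of 4112 genes past 1.5-fold, and the interval holds both 1 and the ratios of the other gated classes but that of GABAergic nuclei. The Skor2/Slc17a6 nuclei of the libraries also differed in oligodendrocyte markers, at 515 CPM in US+, against 51.6 CPM in US-. Whether the ratio differed between classes was not tested.

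**Figure D2:**
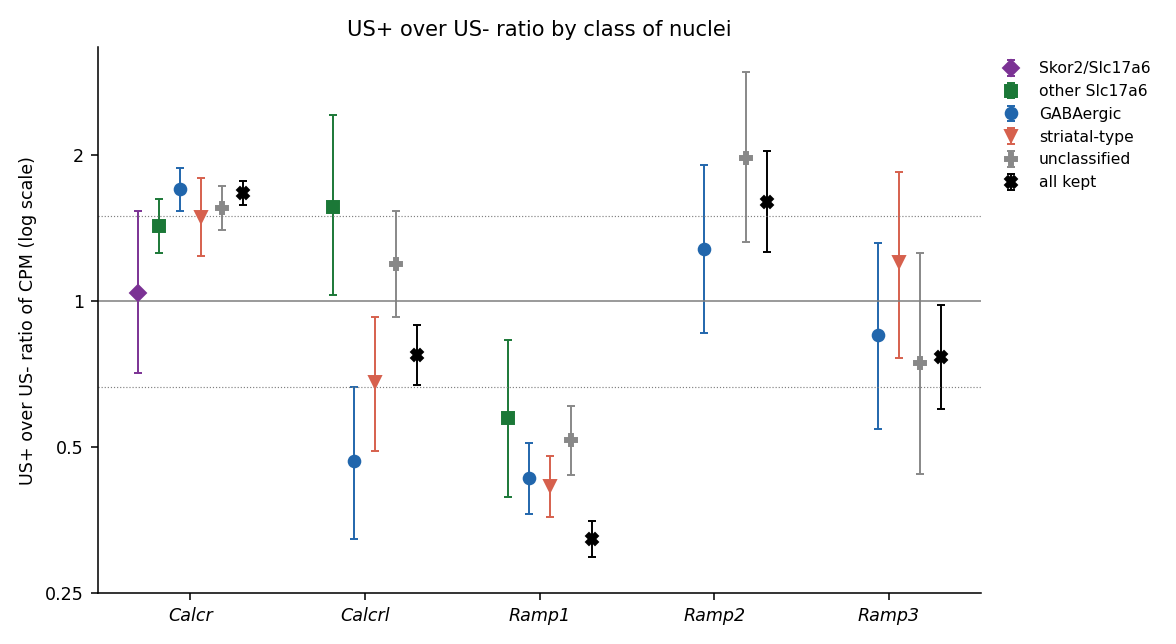
US+ over US- ratio of CPM (vertical axis, log scale) for each member with at least 50 UMIs over both libraries in a class, with exact 95% intervals and 1 symbol per class; the solid line marks 1 and the dotted lines 1.5-fold. Calcr lay above 1 and Ramp1 below 1 in each class shown, while Calcrl lay above 1 in other Slc17a6 nuclei (1.57) and below 1 in GABAergic (0.468) and striatal-type (0.681) nuclei.

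Calcr was also read in 39 sets of nuclei gated by at least 2 UMIs of 1 marker (at least 5 UMIs for peptide genes), which overlap one another. Here and for the other members, gates are ordered by the mean CPM of both libraries, and the order within 1 library can differ. Calcr was highest, in each library as well, in nuclei with Sim1, a transcription factor of hypothalamic glutamatergic neurons, at 69.9 CPM in US+, against 53.2 CPM in US-. The prolactin receptor gate Prlr followed by that mean with 55.3 CPM in US+ and 45.1 CPM in US-. Ebf1 nuclei (63.0 CPM in US+ and 33.1 CPM in US-), Nts or neurotensin nuclei (55.5 and 32.4 CPM in US+ and US-) and Rorb nuclei (49.0 and 35.5 CPM in US+ and US-) completed the highest 5. In US+ alone, Ebf1 and Nts nuclei lay above Prlr nuclei, and Drd2 nuclei (49.6 CPM) above Rorb nuclei. The lowest 3 by the mean were the cholinergic gates Chat (9.94 CPM in US+ and 2.60 CPM in US-) and Slc5a7 (10.6 and 1.58 CPM in US+ and US-) and the Drd1 gate (3.91 and 4.42 CPM in US+ and US-). In the 28 gates with at least 50 Calcr UMIs, the ratio was above 1 in 28 and its interval in 24, with a median of 1.72 and a range of 1.04 to 3.02.

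The genes whose pattern was most like that of Calcr were ranked in US- by the lower bound of the CPM ratio of Calcr-positive over Calcr-negative nuclei, over 8903 genes, and then read in US+. The 6 highest were C1ql3, which encodes a secreted synaptic protein, Gm28526, the imprinted gene Peg10, Sim1, Asb4 and Prlr. C1ql3 was 2.36 times as high in positive nuclei of US+ and 3.84 times in those of US-, Peg10 2.18 and 3.13 times in US+ and US-, and Sim1 2.58 and 3.20 times in US+ and US-. Prlr, with the most UMIs of the 6, was at 256 CPM in positive and 146 CPM in negative nuclei of US+ (ratio 1.74, 1.67 to 1.82), and at 240 and 89.4 CPM in positive and negative nuclei of US- (ratio 2.68). In the US+ library, which did not choose these genes, all 6 ratios were above 1.6.

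Calcrl, at chromosome 2, 84330626 to 84425411 on the minus strand, was sparse, with 324 UMIs (3.82 CPM) in US+ and 488 UMIs (4.93 CPM) in US-. The ratio over all kept nuclei was 0.774 (0.670 to 0.892), and a Calcrl UMI was found in 200 US+ nuclei (2.02%) and 338 US- nuclei (3.06%). It was highest, by its few UMIs, in Skor2/Slc17a6 nuclei (5 UMIs in each library, 8.65 CPM in US+ and 10.7 CPM in US-), whose interval overlapped that of striatal-type nuclei. Striatal-type nuclei had 6.89 CPM in US+ and 10.1 CPM in US-, which was 1.96 times (1.42 to 2.65) all other kept nuclei in US+ and 2.93 times (2.44 to 3.51) in US-. In that comparison 10.5% of 18056 genes were past 2-fold the same way in both libraries. GABAergic nuclei had the lowest level, 1.31 CPM in US+ and 2.79 CPM in US-, which was 0.237 and 0.437 times all other kept nuclei in US+ and US- (1.01% of genes past 2-fold). Other Slc17a6 nuclei, at 5.26 CPM in US+, against 3.36 CPM in US-, were above all other nuclei in US+ (1.48) and below them in US- (0.657).

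The direction of the Calcrl difference was not the same in every class. In other Slc17a6 nuclei the US+ over US- ratio was 1.57 (1.03 to 2.42), from 71 US+ and 35 US- UMIs. In GABAergic nuclei it was 0.468 (0.324 to 0.667), from 45 US+ and 112 US- UMIs, and in striatal-type nuclei 0.681 (0.492 to 0.926), from 51 US+ and 221 US- UMIs. The difference between these ratios was not tested. Striatal-type nuclei held 15.7% of the Calcrl UMIs of US+ and 45.3% of those of US-, and were 5.92% of US+ and 18.3% of US- nuclei. Outside that class the ratio was 1.02 (0.856 to 1.21), and in nuclei with no Rarb UMI it was 1.61 (1.25 to 2.07), both alternatives chosen after seeing the data. The lower level over all kept US+ nuclei thus did not hold in either pool, although the first pool includes the GABAergic nuclei, at 0.468.

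Calcrl-positive nuclei of US- held more UMIs of the neuropeptide gene Avp (3.28 times Calcrl-negative nuclei), of Slc24a4 (3.03 times), Mhrt (3.03 times), Prkch (2.85 times), Rarb (2.63 times) and the Kit ligand gene Kitl (2.78 times), the 6 genes most like it of 5954 ranked. In US+ the same genes were between 1.64 (Mhrt) and 3.52 times (Avp) as high in positive nuclei. By the mean of both libraries, the highest marker gate of Calcrl was Ddc, the aromatic amino acid decarboxylase gene, at 7.25 CPM in US+, against 11.3 CPM in US-. Cyp19a1 (aromatase), Opn5, Drd1 and Sim1 nuclei followed, each on 7 to 74 UMIs a library, and Ddc was highest in neither library alone. The lowest 3 by the mean were Npr3 nuclei (2 UMIs in US+ and 0 in US-), Nts nuclei (0 UMIs in US+ and 1 in US-) and Moxd1 nuclei, with 0 UMIs in 142 US+ and 159 US- nuclei. Of 17 gates with at least 50 UMIs, 7 were higher and 10 lower in US+. Markers of other cell types moved with Calcrl. The summed list of 5 genes of oligodendrocyte precursors was 4.88 times as high in Calcrl-positive as in Calcrl-negative nuclei of US+ and 2.52 times in US-. Vcan alone supplied most of that sum over all kept nuclei, 17.8 of 23.1 CPM for US+ and 15.1 of 17.3 CPM for US-. Each class of nuclei held Vcan, and which genes of the list moved with Calcrl was not tested. Mural genes were 6.85 times and endothelial genes 3.08 times as high in Calcrl-positive as in Calcrl-negative US+ nuclei, against 1.96 and 1.13 times in US-. Nuclei with at least 3 UMIs of the mural list held 11 US+ and 5 US- Calcrl UMIs. Beyond leaving out nuclei with non-neuronal markers, the part of these genes in the Calcrl values was not tested.

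Ramp1, at chromosome 1, 91179822 to 91225196 on the plus strand, differed most between the libraries. It had 703 UMIs (8.28 CPM) in US+ and 2534 UMIs (25.6 CPM) in US-, a ratio of 0.323 (0.297 to 0.352), and only 0.219% of genes had a lower ratio. A Ramp1 UMI was found in 577 US+ nuclei (5.82%) and 1709 US- nuclei (15.5%). No US+ nucleus held 5 or more, while 20 US- nuclei did.

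Of the classes, striatal-type nuclei had the highest Ramp1 level in both libraries, with 215 UMIs (29.1 CPM, 25.3 to 33.2) in US+ and 1526 UMIs (70.0 CPM, 66.5 to 73.5) in US-. That was 4.61 times (3.91 to 5.43) all other kept nuclei in US+ and 5.35 times (4.94 to 5.80) in US-. GABAergic nuclei had 5.70 CPM in US+ and 13.2 CPM in US-, and other Slc17a6 nuclei 3.93 CPM in US+ and 6.82 CPM in US-. The share of positive nuclei was 25.9% of US+ and 46.2% of US- striatal-type nuclei, against 3.32% of US+ and 5.00% of US- other Slc17a6 nuclei, at median depths of 10550 and 9211 UMIs in striatal-type nuclei of US+ and US- and of 8261 and 8221 UMIs in other Slc17a6 nuclei. After thinning to 2000 UMIs the shares in striatal-type nuclei were 5.79% in US+ and 14.4% in US-, lower in US+ although its striatal-type nuclei were the deeper ones. In Skor2/Slc17a6 nuclei, 4 of 52 US+ nuclei and 0 of 50 US- nuclei had a Ramp1 UMI, where a floor of 3 counts allows up to 6% of US- nuclei with a UMI and sets no limit on nuclei that express the gene.

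Astrocyte genes also moved with Ramp1, at 3.39 times the level of Ramp1-negative nuclei in Ramp1-positive nuclei of US+ and 2.32 times in US-. The 239 US+ and 110 US- nuclei with at least 3 UMIs of the astrocyte list held Ramp1 at 42.4 CPM (69 UMIs) in US+ and 80.6 CPM (62 UMIs) in US-. Beyond leaving out nuclei with non-neuronal markers, their part in the Ramp1 values was not tested.

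The composition of the libraries moved with Ramp1. Striatal-type nuclei held 30.6% of the Ramp1 UMIs of US+ and 60.2% of those of US-, and they were 5.92% of US+ and 18.3% of US- nuclei. The ratio was below 1 within classes as well. It was 0.416 (0.359 to 0.480) in striatal-type nuclei, 0.432 (0.365 to 0.509) in GABAergic nuclei, 0.576 (0.396 to 0.833) in other Slc17a6 nuclei and 0.517 (0.439 to 0.609) in unclassified nuclei, where 7.60% of genes were past 1.5-fold. Outside the striatal-type class it was 0.482 (0.432 to 0.537).

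Other striatal genes were also lower within the US+ striatal-type class, and their part in the Ramp1 difference was not tested. Rarb was at 1096 CPM in US+, against 1409 CPM in US-, Drd2 at 79.3 and 139 CPM in US+ and US-, and Adora2a, the adenosine receptor gene of Drd2 neurons, at 23.8 and 45.6 CPM in US+ and US-. Penk, the enkephalin gene, went the other way, with 242 CPM in US+ and 133 CPM in US-. The nuclei were therefore also split by their own Rarb UMIs, an alternative chosen after seeing the data. Ramp1 stood at 4.77 CPM in US+, against 6.04 CPM in US-, in nuclei with no Rarb UMI (ratio 0.790, 0.669 to 0.933). With 5 to 9 Rarb UMIs it was at 22.8 CPM in US+, against 55.6 CPM in US- (ratio 0.411), and with 20 or more at 33.0 and 78.3 CPM in US+ and US- (ratio 0.422, 0.345 to 0.511). Ramp1 was thus lower in US+ at matched Rarb UMI counts in each of 6 strata, by a smaller factor where Rarb was not detected. The strata do not match Rarb levels, since US+ nuclei with 2 or more Rarb UMIs were deeper, with medians of 8420 UMIs in US+ and 6470 UMIs in US- at 2 to 4, 7542 and 6410 UMIs in US+ and US- at 5 to 9, and 16400 and 14220 UMIs in US+ and US- at 20 or more. The part of this depth in the ratios was not tested.

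**Figure D3:**
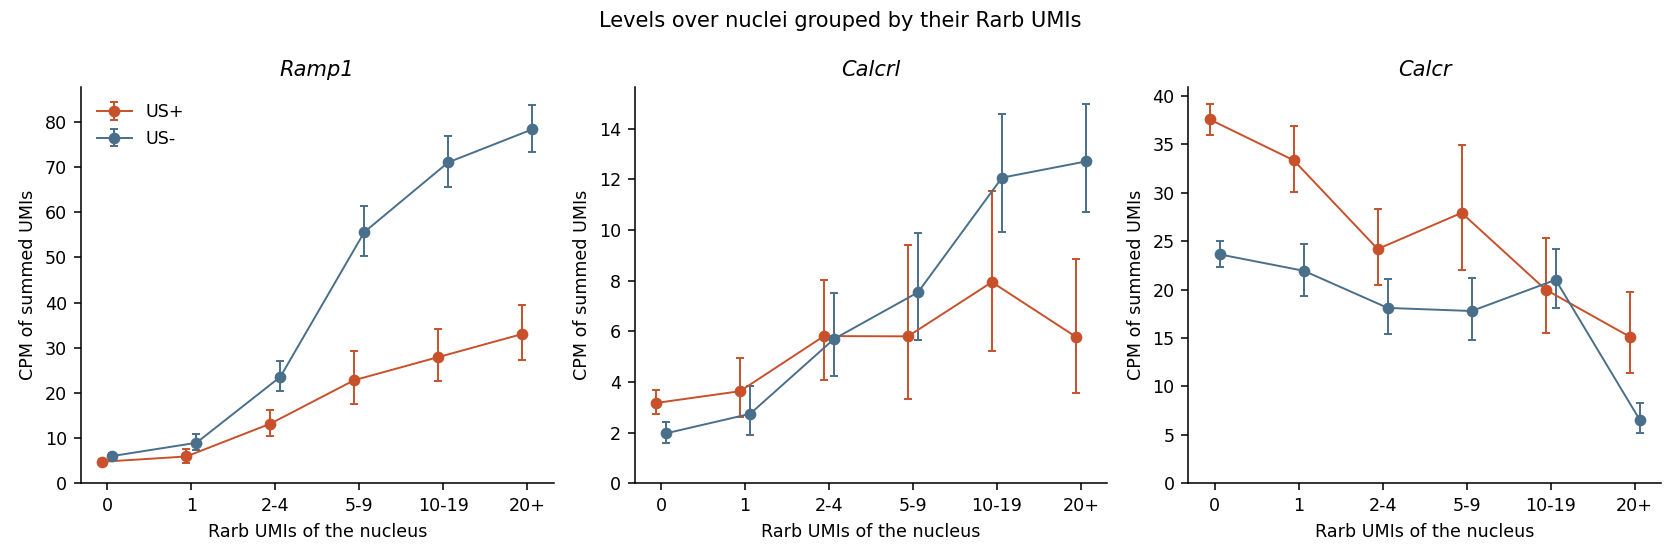
CPM of Ramp1, Calcrl and Calcr (vertical axes) in nuclei grouped by their number of Rarb UMIs (horizontal axis), for US+ and US- with exact Poisson 95% intervals. Ramp1 in nuclei with 20 or more Rarb UMIs was at 33.0 CPM in US+, against 78.3 CPM in US-, whereas Calcr was highest in nuclei with no Rarb UMI, at 37.5 CPM in US+, against 23.6 CPM in US-.

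The same split gave another picture for the receptors. The Calcrl ratio was 1.61 with no Rarb UMI, 1.02 with 2 to 4 and 0.455 (0.273 to 0.723) with 20 or more. The Calcr ratio was above 1 in 5 strata and 0.952 (0.711 to 1.26) in nuclei with 10 to 19 Rarb UMIs.

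Gates on striatal markers need not hold striatal nuclei only. By the mean of both libraries, the highest marker gates of Ramp1 were those of the striatal markers Adora2a (41.8 CPM in US+ and 68.1 CPM in US-), Drd1 (32.2 and 74.2 CPM in US+ and US-), Penk (23.4 and 60.6 CPM in US+ and US-) and Drd2 (20.3 and 60.1 CPM in US+ and US-). The aromatase gate Cyp19a1 followed by that mean, but differed between the libraries, with 69.4 CPM in US-, from 51 UMIs in 65 nuclei, and 7.85 CPM in US+, from 9 UMIs in 120 nuclei. The lowest were Lhx6, Lhx8 and Slc5a7, markers of cells from the medial ganglionic eminence, which include cholinergic neurons, with Slc5a7 nuclei at 1.93 CPM in US+, against 3.15 CPM in US-. In 29 gates with at least 50 Ramp1 UMIs the ratio was below 1 in 29 and its interval in 25, with a median of 0.386 and a range of 0.113 to 0.888. By the mean of both libraries none of the 5 highest gates was shared between Calcr and Ramp1, while in US+ alone Drd2 was among the 5 highest of both.

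**Figure D4:**
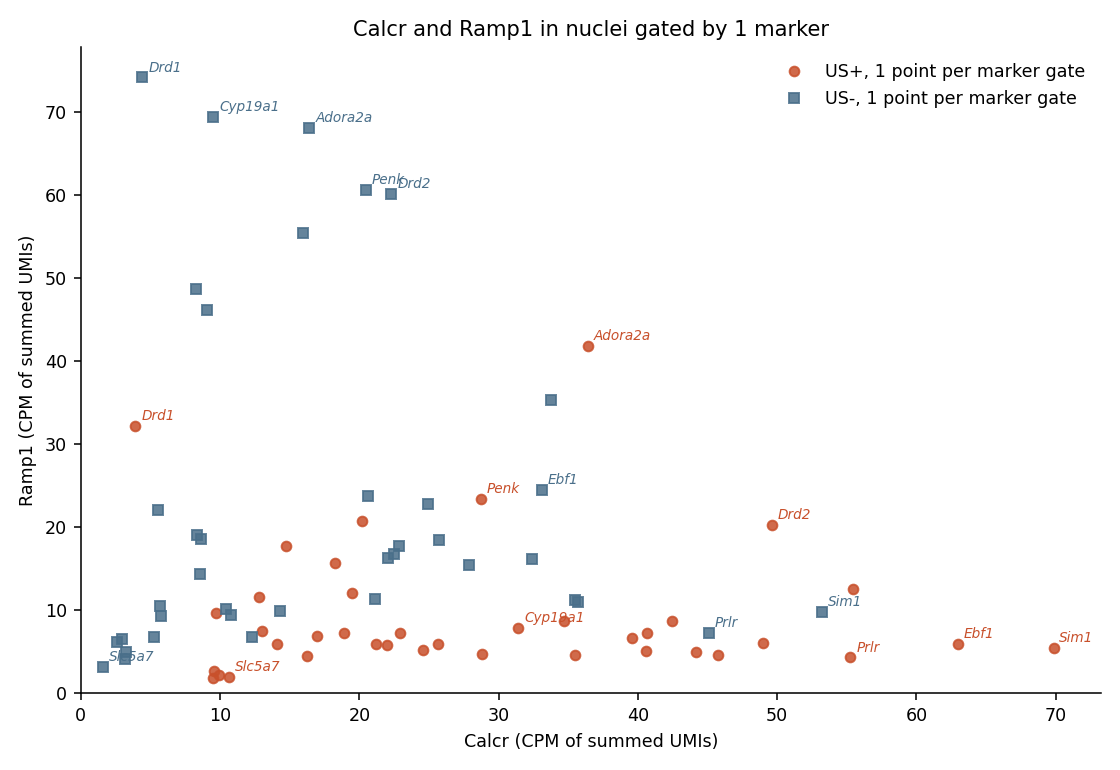
Calcr (horizontal axis) against Ramp1 (vertical axis), both in CPM of summed UMIs, with 1 point for each of 39 marker gates in US+ (circles) and US- (squares). The gates overlap and are not independent. Sim1 nuclei lie far right and low (Calcr at 69.9 CPM in US+, against 53.2 CPM in US-), and Drd1 nuclei far left and high (Ramp1 at 32.2 CPM in US+, against 74.2 CPM in US-).

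Over 11666 genes ranked in US-, the genes most like Ramp1 were Rarb (5.04 times as high in Ramp1-positive as in Ramp1-negative nuclei of US+, and 4.90 times in US-), the protein kinase C gene Prkch (3.57 and 4.72 times in US+ and US-), Sh3rf2 (5.13 and 4.82 times), Ankrd33b (4.33 and 4.69 times), the chloride channel gene Ano2 (4.35 and 4.67 times) and Gm34667 (4.85 and 4.86 times). The intervals of the libraries overlapped for each of these genes except Prkch.

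Ramp2, at chromosome 11, 101246028 to 101259546 on the plus strand, was near the limit of detection, with 168 UMIs (1.98 CPM) in US+ and 122 UMIs (1.23 CPM) in US-. Its locus overlaps Vps25 on the same strand, an endosomal sorting gene with 98 US+ and 64 US- UMIs, so reads in the overlap cannot be placed with certainty. The ratio was 1.61 (1.26 to 2.04) over all kept nuclei, 1.28 (0.860 to 1.91) in GABAergic nuclei and 1.97 (1.33 to 2.97) in unclassified nuclei. The most in 1 nucleus was 10 UMIs, in an unclassified US+ nucleus. Striatal-type nuclei had 2 Ramp2 UMIs in US+ and 22 in US-. By the mean of both libraries the highest marker gate was Moxd1 (3.64 CPM in US+ and 4.77 CPM in US-, from 5 and 8 UMIs), which was highest in neither library alone, and Npr3 nuclei had 0 UMIs in both libraries.

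Markers of other cell types moved with Ramp2. In Ramp2-positive over Ramp2-negative nuclei, mural genes were 14.3 times as high in US+ and 1.20 times in US-, endothelial genes 4.71 and 1.51 times in US+ and US-, and astrocyte genes 3.80 and 3.23 times in US+ and US-. Over all kept nuclei the endothelial list of 10 genes summed to 87.1 CPM in US+ and 69.8 CPM in US-, with the defining genes Cldn5 and Kdr low (1.06 and 0.401 CPM in US+, 0.172 and 0.435 CPM in US-), and the mural list of 8 genes to 9.66 CPM in US+ and 5.67 CPM in US-. The 20 US+ nuclei with at least 3 UMIs of the mural list held 24 Ramp2 UMIs, and the 7 such US- nuclei held 0. Leaving out nuclei with non-neuronal markers kept the direction of the Ramp2 ratio over all kept nuclei. Beyond that, the part of these genes in the Ramp2 values was not tested. Apoe, Slc1a2 and Cst3, genes of high level in astrocytes, were among the 6 genes most like Ramp2, with Apoe at 4.72 times in positive nuclei of US+ and 2.65 times in those of US-. The first of the 6, the somatostatin gene Sst, was 5.73 times as high in US- but 0.701 times in US+, where 27 Sst UMIs were in positive nuclei.

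Ramp3, at chromosome 11, 6658521 to 6677475 on the plus strand, had 112 UMIs (1.32 CPM) in US+ and 170 UMIs (1.72 CPM) in US-, a ratio of 0.768 (0.599 to 0.981). As with Ramp1, striatal-type nuclei had the highest level, 4.19 CPM in US+ and 3.48 CPM in US-, which was 4.01 times (2.56 to 6.13) all other kept nuclei in US+ and 2.86 times (2.08 to 3.91) in US-. Within that class the US+ over US- ratio was 1.20 (0.765 to 1.85), unlike that of Ramp1. No Ramp3 UMI was found in the 52 US+ and 50 US- Skor2/Slc17a6 nuclei, where a floor of 3 counts allows up to 5.77% and 6% of nuclei with a UMI in US+ and US-, with no limit on nuclei that express the gene. By the mean of both libraries, Sst nuclei led the gates (6.41 CPM in US+ and 9.41 CPM in US-, from 5 and 7 UMIs), before the gates of the striatal markers Adora2a (10.8 and 4.92 CPM in US+ and US-) and Penk (7.27 and 4.04 CPM in US+ and US-). Genes most like Ramp3 included Egfr (3.47 and 11.4 times in US+ and US-) and the peptide genes Npy (3.60 and 5.81 times) and Sst (2.38 and 4.13 times), which mark a known class of GABAergic interneurons. The rest of the 6 were Lmo7 (4.99 and 2.63 times in US+ and US-), Gm28376 (1.24 and 2.65 times) and Il1rapl2 (1.14 and 2.32 times). The US+ interval of Gm28376 included 1 (0.942 to 1.60).

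Over all kept nuclei, most receptor-positive nuclei held no Ramp UMI. No UMI of any Ramp was found in 975 of 1063 Calcr-positive US+ nuclei (91.7%) and in 599 of 710 Calcr-positive US- nuclei (84.4%). The same held for 160 of 200 Calcrl-positive US+ nuclei (80%) and 210 of 338 Calcrl-positive US- nuclei (62.1%). In striatal-type US- nuclei the share without a Ramp UMI was lower, at 53.3% for Calcr and 46.4% for Calcrl. Ramp1, the Ramp with the most UMIs, was itself found in only 5.82% of all kept US+ nuclei and 15.5% of all kept US- nuclei. Both receptors were found in 39 US+ and 33 US- nuclei. At these depths a transcript can be missed, so a nucleus without a Ramp UMI may still express a Ramp. Doublets and free RNA can act the other way, and their part was not tested.

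Ramp1, the partner that forms the CGRP receptor with Calcrl, was compared between nuclei with and without a receptor UMI after each nucleus was thinned to 5000 UMIs. Over all kept nuclei, Ramp1 was found in 10 of 104 Calcrl-positive US+ nuclei (9.62%, 4.71 to 17.0) and in 3.25% of Calcrl-negative ones. In US- it was found in 41 of 171 Calcrl-positive nuclei (24.0%, 17.8 to 31.1) and in 9.90% of Calcrl-negative ones. Within striatal-type nuclei the Calcrl-negative share lay inside the interval of the Calcrl-positive one in both libraries, with 26.7% (7.79 to 55.1) against 14.3% in US+ and 30.4% (20.5 to 41.8) against 29.0% in US-. Within GABAergic nuclei they were 13.3% (1.66 to 40.5, 2 of 15 nuclei) against 2.69% in US+ and 31.4% (16.8 to 49.3, 11 of 35 nuclei) against 5.32% in US-.

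GABAergic nuclei were not uniform in this respect. Those with at least 2 Rarb UMIs held Ramp1 at 16.6 CPM in US+, against 40.8 CPM in US-, and those with 0 or 1 at 3.69 CPM in US+, against 5.98 CPM in US-. Without thinning, and in a split chosen after seeing the data, Ramp1 was found among GABAergic nuclei with at least 2 Rarb UMIs in 4 of 7 Calcrl-positive US+ nuclei, against 15.3% of Calcrl-negative ones, and in 18 of 44 Calcrl-positive US- nuclei (40.9%, 26.3 to 56.7), against 28.6%. Among those with 0 or 1 Rarb UMIs it was found in 2 of 26 US+ nuclei (7.69%, 0.945 to 25.1), against 3.12%, and in 4 of 30 US- nuclei (13.3%, 3.75 to 30.7), against 4.76%. In these 4 groups the shares were higher in Calcrl-positive nuclei, and only in US+ nuclei with at least 2 Rarb UMIs was the Calcrl-negative share below the interval.

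**Figure D5:**
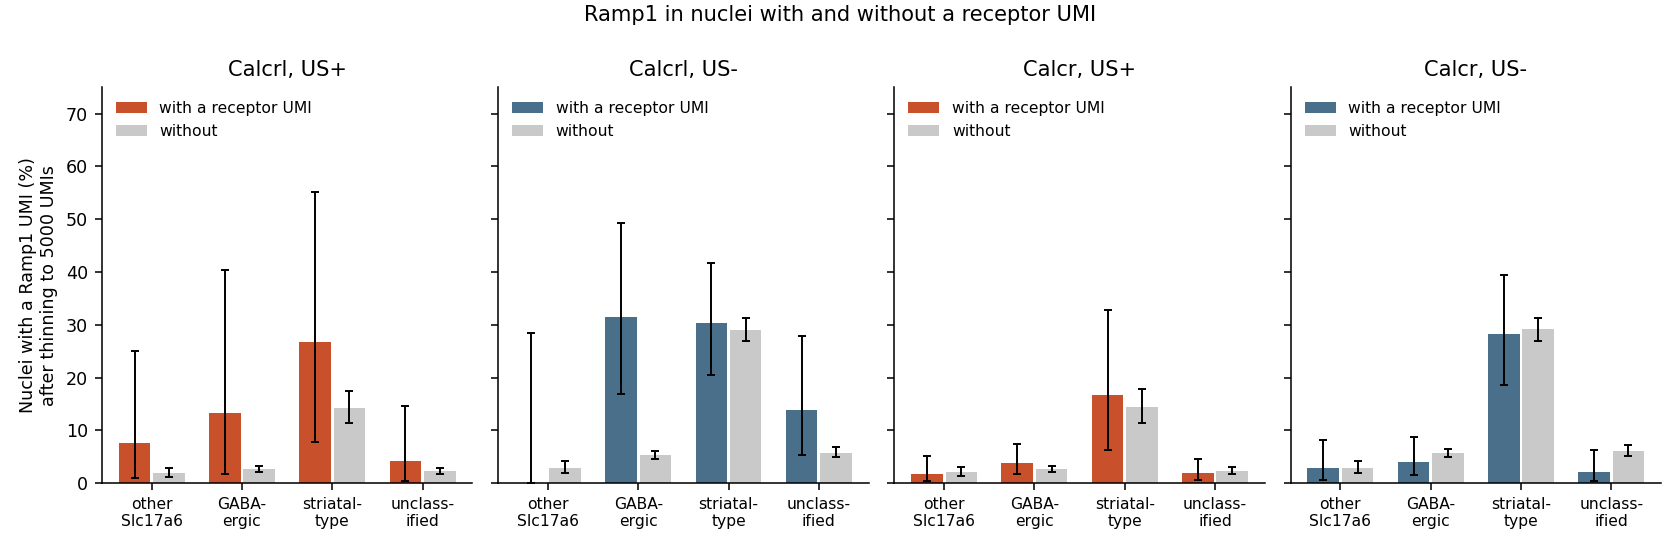
Share of nuclei with a Ramp1 UMI (vertical axis, %, after thinning each nucleus to 5000 UMIs) among nuclei with (coloured) and without (grey) a UMI of Calcrl or Calcr, by class and library, with exact binomial 95% intervals. For Calcrl the GABAergic shares stand apart in US- (31.4% against 5.32%), while in striatal-type nuclei of US- they are close (30.4% against 29.0%).

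For Calcr, with which Ramp1 forms an amylin receptor, the shares did not part in the same way. Over all kept nuclei, Ramp1 was found in 3.28% of Calcr-positive and 3.35% of Calcr-negative US+ nuclei, and in 7.16% and 10.4% of Calcr-positive and Calcr-negative US- nuclei. In striatal-type nuclei the shares were 16.7% against 14.5% in US+ and 28.2% against 29.1% in US-, and in GABAergic nuclei 3.87% against 2.66% in US+ and 4.08% against 5.65% in US-. Ramp2 and Ramp3 were each found in at most 7 receptor-positive nuclei of a library after thinning. The highest of these shares was that of Ramp3 in Calcrl-positive US- nuclei, 4.09% (1.66 to 8.25), against 0.715% of Calcrl-negative ones.

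Few UMIs were found for the genes of the peptides that these receptors bind, in nuclei sorted for NeuN. Of 5 ligand genes, only Calca, which encodes calcitonin and CGRP, had at least 50 UMIs (76 UMIs or 0.896 CPM in US+ and 61 UMIs or 0.617 CPM in US-, ratio 1.45, 1.02 to 2.07). Calcb and Adm had 11 UMIs each in US+ and 8 and 19 UMIs in US-, Iapp (amylin) 5 UMIs in US+ and 3 in US-, and Adm2 none in either library. Of 3 other partner genes, Crcp, the CGRP receptor component, was at 18.6 CPM in US+, against 19.2 CPM in US- (ratio 0.974, 0.910 to 1.04).

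Among 9 other class B receptor genes, 7 had at least 50 UMIs, of which 2 were past 1.5-fold higher and 1 past 1.5-fold lower in US+, where 7.67% and 3.36% of all 20122 genes were. Vipr2, a receptor for vasoactive intestinal peptide, was at 8.21 CPM in US+, against 2.29 CPM in US- (ratio 3.58, 3.08 to 4.18). Glp1r, the receptor for glucagon-like peptide, was at 2.24 CPM in US+, against 1.19 CPM in US- (ratio 1.88). Vipr1 lay on the other side, at 2.01 CPM in US+, against 5.05 CPM in US- (ratio 0.399), and, like Ramp1, it was highest in striatal-type nuclei (6.62 CPM in US+ and 14.1 CPM in US-).

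Downstream of the receptors, 18 of 19 genes for G proteins, adenylyl cyclases, arrestins and kinases had at least 50 UMIs, with a median ratio of 1.00. None was past 1.5-fold higher and 2 were past 1.5-fold lower in US+, against 7.67% and 3.36% of all genes. These were Adcy5, the main adenylyl cyclase of the striatum (84.5 CPM in US+ and 152 CPM in US-, ratio 0.554), and Gnal, its G protein alpha subunit (192 and 306 CPM in US+ and US-, ratio 0.625). The highest ratios of the 18 were those of Adcy7 (1.49) and Adcy6 (1.47), and Gnas, the Gs alpha subunit gene, was at 1.415 (1.40 to 1.43). Within striatal-type nuclei the ratios of Adcy5 and Gnal were 0.645 and 0.863. Those of Gnas, Adcy6 and Adcy7 were 1.78, 1.64 and 1.62 there, where 6.39% of genes were past 1.5-fold higher. Of 10 genes used as markers of torpor and thermoregulation, 4 were past 1.5-fold higher in US+, against 7.67% of all genes, with Gal at 34.4 CPM in US+, against 14.9 CPM in US- (ratio 2.31) and Prlr, which was among the genes most like Calcr, at 160 and 99.8 CPM in US+ and US- (ratio 1.61). By class the Prlr ratio was 1.03 in other Slc17a6, 1.47 in GABAergic and 3.17 in striatal-type nuclei.

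Early response genes, which neurons transcribe after activity, were Fos, Fosb, Nr4a1, Egr1 and Dusp1, of which 4 of 5 were past 1.5-fold higher in US+ (7.67% of all genes), with ratios between 1.23 for Dusp1 and 19.8 for Fosb. Their UMIs were summed in nuclei with and without a member UMI. In US+ they stood at 51.1 CPM in Calcr-positive and 69.2 CPM in Calcr-negative nuclei (ratio 0.739, 0.676 to 0.807), and in US- at 23.9 and 25.9 CPM in Calcr-positive and Calcr-negative nuclei (ratio 0.922, 0.782 to 1.08). Ramp1-positive nuclei differed in US+, with 154 CPM against 60.4 CPM in Ramp1-negative nuclei (ratio 2.54, 2.37 to 2.73), while the interval of the US- ratio included 1, with 27.3 CPM against 25.4 CPM in Ramp1-negative nuclei (ratio 1.07, 0.972 to 1.19). Within striatal-type US+ nuclei, where early genes were highest, the Ramp1 ratio was 1.01 (0.899 to 1.12). In GABAergic US+ nuclei it was 2.63 (2.32 to 2.98), and it was 1.31 (0.996 to 1.69) among those with 0 or 1 Rarb UMIs and 1.94 (1.66 to 2.25) among those with at least 2.

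The other members had fewer positive nuclei. Early genes in all kept US+ nuclei were 1.49 times (1.29 to 1.70) as high with a Calcrl UMI as without, 1.28 times (1.06 to 1.52) with a Ramp2 UMI and 2.37 times (2.02 to 2.77) with a Ramp3 UMI. Within striatal-type US+ nuclei the Ramp3 ratio was 1.20 (0.950 to 1.50) and the Calcrl ratio 1.31 (1.08 to 1.57). Within GABAergic US+ nuclei the Ramp3 ratio was 2.66 (2.06 to 3.40) and the Calcrl ratio 0.922 (0.606 to 1.35). In all kept US- nuclei the ratios were 0.943, 1.21 and 0.516 for Calcrl, Ramp2 and Ramp3, the last from 22 UMIs in positive nuclei. Within GABAergic nuclei the Calcr ratio was 1.13 (0.994 to 1.29) in US+ and 1.16 (0.894 to 1.47) in US-, and did not show the lower value of all kept US+ nuclei. Among GABAergic US+ nuclei the Calcr ratio was 1.28 (1.09 to 1.50) with 0 or 1 Rarb UMIs and 0.842 (0.664 to 1.05) with at least 2. In US- it was 1.26 (0.961 to 1.62) and 0.611 (0.222 to 1.35) in the same split, which was chosen after seeing the data. It was lower in striatal-type US+ nuclei (0.635, 0.522 to 0.767) and unclassified US+ nuclei (0.502, 0.398 to 0.625), and in US- it was lower in other Slc17a6 nuclei (0.393, 0.217 to 0.661, from 15 UMIs in positive nuclei).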

How the data were processed

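The authors made the gene by nucleus tables with Cell Ranger 6.1.1 on mm10, per the labels, and what they deposited are raw UMI counts. The study's methods also name a normalization to the library of lowest saturation, made on the reads. UMIs were summed over the nuclei of each class and library and divided by all UMIs of those nuclei (CPM). Intervals were exact (scipy 1.17.1): Poisson for levels, binomial for shares and conditional binomial for ratios, at 95%. No test was run, since each condition had 1 library. For shares, nuclei were thinned at random to 2000 or 5000 UMIs, and shallower nuclei were left out. Doublets were not called beyond the maximum of 7500 genes, and leaving out the 9% of nuclei with the most UMIs was tried. Computations ran in Python 3.11.15 with numpy 2.4.6 and pandas 2.3.3 and were tested on simulated data. Scaling alternatives used edgeR 4.0.16 in R 4.3.3. Coordinates are those of GENCODE M21.

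Members, gates and lists were chosen with earlier results of these data known. The genes named are the members, the highest or lowest 2 of each list with at least 50 UMIs or genes set beside a member, the 5 highest and 3 lowest marker gates, and the 6 genes most like each member in US- with at least 100 UMIs in its positive nuclei.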

Additional observations from a re-analysis of the deposited data

Results flagged for a closer look

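Calcrl was flagged because its US+ over US- ratio lay on opposite sides of 1 between classes of the same libraries. It was 1.57 in other Slc17a6 nuclei, 0.468 in GABAergic nuclei and 0.681 in striatal-type nuclei, each with its interval on that side of 1. The difference between the classes was not tested, and each value comes from 1 library per condition.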

How the results depend on the processing

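No paired analysis was possible because each group is 1 library. The US+ over US- ratio kept its direction for Calcr, Ramp1, Ramp2 and Ramp3 over all kept nuclei under each alternative run. Averaging per nucleus gave 1.55 for Calcr and 0.366 for Ramp1, and leaving out nuclei with non-neuronal markers gave 1.54 and 0.292. Calcr was 1.56 without the 9% of nuclei with the most UMIs and 1.39 with equal weight for the 4 classes, which could not be run for Ramp1, Ramp2 and Ramp3 because a class held no UMI. Ramp1 was 0.297 with a minimum of 5000 UMIs, 0.482 outside the striatal-type class and 0.790 without a Rarb UMI, and Calcrl turned to 1.02 and 1.61 under the last 2, which were chosen after seeing the data. The interval of Ramp3 included 1 with a minimum of 5000 UMIs (0.810, 0.624 to 1.05). Ramp1 in striatal-type over all other nuclei was 5.44 in US+ and 6.28 in US- with that minimum, and 3.79 and 4.50 in US+ and US- averaged per nucleus. Calcr in Skor2/Slc17a6 over other Slc17a6 nuclei of US- was 1.39 with at least 2 Slc17a6 UMIs, 4.51 without nuclei with non-neuronal markers, 1.77 without the 9% with the most UMIs and 1.75 without its highest nucleus. The cause of these shifts was not tested. Over 23 ratios of US+ over US-, 204 values of the alternatives stayed within their interval, 13 moved and 2 turned. Over 22 class ratios 180 stayed and 22 moved, over 48 co-detection shares 158 stayed and 42 moved, and over 10 early gene ratios 12 stayed and 8 moved. TMM and RLE scaling shifted log2 ratios over all kept nuclei by -0.05 and -0.06.

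Few UMIs limit Calcrl, Ramp2 and Ramp3 in most classes and every member in Skor2/Slc17a6 nuclei, where differences of under about 1.5-fold in Calcr were not detectable. The spread between mice is unknown, and the treatment cannot be told apart from the library, the dissection and the sort.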

Other observations

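Nuclei with under 2000 UMIs, which were left out above, numbered 1987 in US+ and 623 in US-. In them Ramp1 was at 28.1 CPM (21.1 to 36.8) in US+ and 50.5 CPM (34.5 to 71.3) in US-, and Calcr at 26.0 CPM (19.2 to 34.4) in US+ and 18.9 CPM (9.79 to 33.1) in US-.

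Oligodendrocyte markers stood at 515 CPM in US+, against 51.6 CPM in US- in the Skor2/Slc17a6 class, against 85.3 CPM in US+ and 58.4 CPM in US- in other Slc17a6 nuclei.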
